A study of Mus musculus with 6 samples.

Results

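The genes of cholesterol synthesis and handling were examined in fetal mouse testes that lacked Ppp1r3c in the somatic cells of the gonad. The 29 genes were chosen by symbol, as genes of the pathway and with no threshold on a measured value, from the 24470 genes of the count table, and all 29 passed the filter on low counts that left 15577 genes. They comprise 7 enzymes of the mevalonate pathway, 11 enzymes that turn its product into squalene and sterols, 5 regulators of SREBP (sterol regulatory element-binding protein), and 6 genes of sterol uptake, storage and trafficking.

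RNA was sequenced from fetal testes at E12.5 (a stage in days of embryonic development) in 3 control and 3 Ppp1r3c cKO (conditional knockout) samples, each a pool of 2 gonadal pairs. Control embryos were Ppp1r3c f/f with no Cre, so both groups shared the floxed alleles on a C57BL/6 background. The cKO embryos were Sf1-Cre; Ppp1r3c f/f, with a Cre transgene under Nr5a1 (Sf1) regulatory sequences that acts in somatic gonadal cells, among them the progenitors of Sertoli cells, and not in germ cells. Ppp1r3c encodes a subunit that brings protein phosphatase 1 to glycogen, and the comparison asked how the testis transcriptome differs when that gene is lost.

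Cells build cholesterol from acetyl-CoA, first through mevalonate to the isoprenoid farnesyl diphosphate, then through squalene and lanosterol in a long series of oxidations, reductions and isomerisations. When membranes are poor in sterol, SCAP carries SREBP from the endoplasmic reticulum to the Golgi, where it is cut into an active transcription factor. INSIG proteins hold SCAP back when sterol is plentiful, so most of the enzyme genes are known to move up and down together. In the fetal testis cholesterol is the precursor of androgens in Leydig cells, and Sertoli and germ cells need it for their membranes.

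Short stretches of promoter are shown for the member whose upstream sequence holds the sterol regulatory element core, Hmgcs1, and for the members with the lowest p in each direction, Idi1 and Soat1, which were chosen after their values were seen. Each sequence is the 150 bases before the RefSeq gene start on the gene's own strand, 5′ to 3′, build GRCm38.p6. Capitals mark TCACNCCAC (the core of the element bound by SREBP), CCAAT (the CCAAT box) and GGGCGG (the GC box bound by Sp1), each searched on both strands.

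Hmgcs1, chr13:119690201-119690350, plus strand: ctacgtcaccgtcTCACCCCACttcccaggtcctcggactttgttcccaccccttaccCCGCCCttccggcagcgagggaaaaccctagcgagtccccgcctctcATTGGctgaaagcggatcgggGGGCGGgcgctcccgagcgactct
Idi1, chr13:8885456-8885605, plus strand: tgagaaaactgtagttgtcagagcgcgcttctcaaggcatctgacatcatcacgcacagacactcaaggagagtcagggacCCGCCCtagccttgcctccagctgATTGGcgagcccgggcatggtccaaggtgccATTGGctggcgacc
Soat1, chr1:156474329-156474478, minus strand: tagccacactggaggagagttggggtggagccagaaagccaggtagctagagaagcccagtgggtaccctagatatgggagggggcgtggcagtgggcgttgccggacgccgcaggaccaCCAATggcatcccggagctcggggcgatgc

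In the stretches shown, the SREBP core of Hmgcs1 began 137 bases before the start, beside 1 CCAAT and 2 GGGCGG matches. Idi1 held 2 CCAAT and 1 GGGCGG match, and Soat1 held 1 CCAAT match and 0 of the other motifs. Over the whole windows, from 250 bases before to 50 bases after the start, 24 members had a RefSeq entry. Fdps, Fdft1, Sqle, Stard4 and Npc1 had none, so their promoters were not searched. The SREBP core was matched in 1 of the 24, against 1.44% of all 27025 genes with a window. CCAAT was matched in 21 of 24 members (87.5%, against 41.1% of all genes) and GGGCGG in 23 of 24 (95.8%, against 38.2%). All members passed the filter on low counts, while the 27025 genes were not limited to the 15577 that did, so the 2 sets also differ in that. These are matches of letters in a window, not measured binding, and no test was made of them.

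Libraries held between 16139487 and 44145158 counts, with control replicate 1 the shallowest. Levels were read as CPM, the counts of a gene per 1000000 counts of its library. Library sizes were scaled by TMM, the trimmed mean of M-values. Ppp1r3c was at 24.4, 22.1 and 22.9 CPM in controls and at 4.71, 5.37 and 5.96 CPM in cKO samples. Every library thus matched its label for Ppp1r3c. One library stood apart. In cKO replicate 3, Xist, the RNA of the inactive X chromosome, was at 379 CPM against at most 1 CPM in the other libraries. In that library the summed level of 7 pre-granulosa (ovarian supporting cell) markers was 269 CPM against 83.3 to 101 CPM elsewhere, and that of 4 Y-linked genes was 220 CPM against 258 to 277 CPM. Its labelled group was kept, and results that rest on it are given with and without it. The labelled tissue was otherwise borne out by its markers, with 12 Sertoli cell markers summing to 1719 to 2320 CPM and 8 fetal Leydig cell markers to 374 to 714 CPM in every sample.

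Levels of different genes were compared per length of annotated exon, as TPM (transcript units per 1000000 of a library). In control testes Hmgcs1, the cytosolic synthase that makes HMG-CoA, led with 195 ± 8.04 TPM (SD, n = 3). Npc2, the soluble lysosomal carrier of cholesterol, followed with 142 ± 6.97 TPM, then Fdps, which makes farnesyl diphosphate, with 131 ± 20.2 TPM. Scap had 113 ± 10.6 TPM and the SREBP-2 gene Srebf2 97.8 ± 5.50 TPM, while the SREBP-1 gene Srebf1 had 51.8 ± 3.07 TPM. The squalene epoxidase Sqle, at 93.3 ± 11.2 TPM, was the highest of the enzymes that act after farnesyl diphosphate. At the low end were Sc5d (7.69 ± 1.29 TPM), Hsd17b7 (8.55 ± 1.83 TPM), Tm7sf2 (10.9 ± 1.32 TPM) and Idi1 (12.4 ± 1.45 TPM), all enzymes, so the levels spanned a factor of 25.3.

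Of the 28 pairs of neighbours in this order, 6 were further apart than the sum of their SDs. These breaks fell below Hmgcs1, Sqle, Mvd, Pmvk, Lss and Insig2, and the other 22 pairs did not differ beyond that spread. Enzymes of a single pathway therefore stood at both ends of the order, and the regulators and trafficking genes lay mostly between. The TPM values depend on the annotated exon length, which counts all exons of a gene's basic transcripts once.

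**Figure D1:**
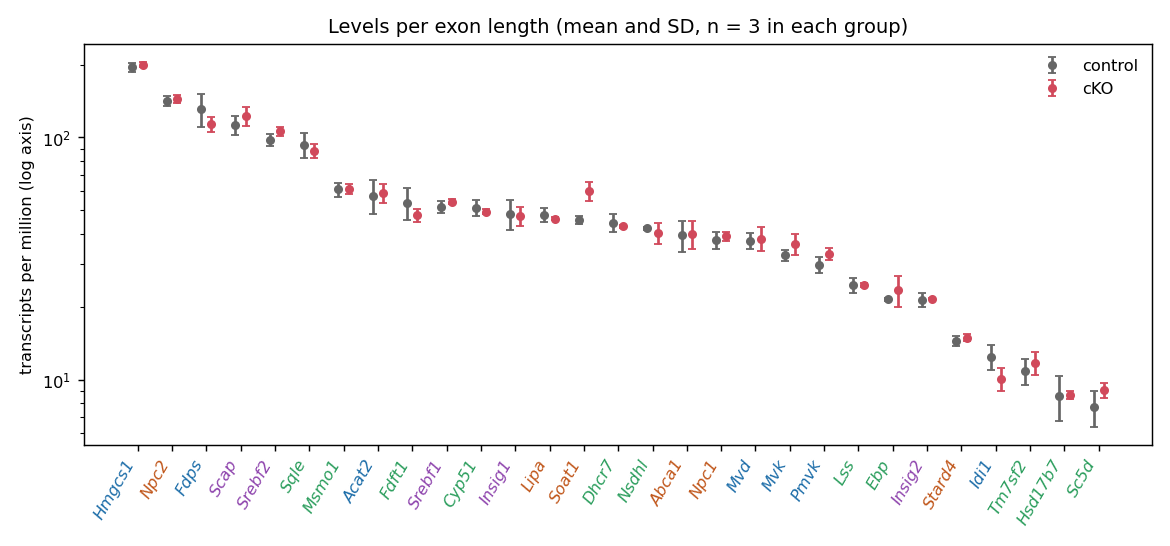
Level of each of the 29 genes in TPM (log axis), ordered by the control mean, with points for the group means and bars for the SD (n = 3, control in grey, cKO in red; names coloured by role: blue mevalonate, green squalene and sterol enzymes, purple SREBP regulators, orange uptake and trafficking). Hmgcs1 is highest at 195 TPM in control and Sc5d lowest at 7.69 TPM, and Soat1 is the gene whose groups stand most clearly apart.

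In the comparison of cKO with control, no member passed an adjusted p (Benjamini-Hochberg over all 15577 genes, edgeR) of 0.05, where 0.0385% of all genes did. DESeq2 called 1 member, Soat1, where it called 0.779% of all genes. At an unadjusted edgeR p under 0.05 there were 2 of 29 members (6.90%), Soat1 higher and Idi1 lower in cKO, a share below the 11.4% of all tested genes. The 2 groups did not overlap for 3 members (10.3%), again a smaller share than the 15.6% of all genes.

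The log2 fold changes of the 29 members had a median of 0.00 and ran from -0.32 to 0.38, with 15 above and 14 below 0. Over all tested genes the median was likewise 0.00. For 26 of 29 members (89.7%) the size of the log2 fold change was under 0.2, against 75.0% of all tested genes. The 95% intervals had half-widths from 0.11 (Hmgcs1) to 0.34 (Tm7sf2) on the log2 scale, with a median of 0.17, so the size of difference that could be seen varied between members. In bulk testis a lower count may come from fewer cells of a type or from less RNA per cell, and the 2 cannot be told apart.

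**Figure D2:**
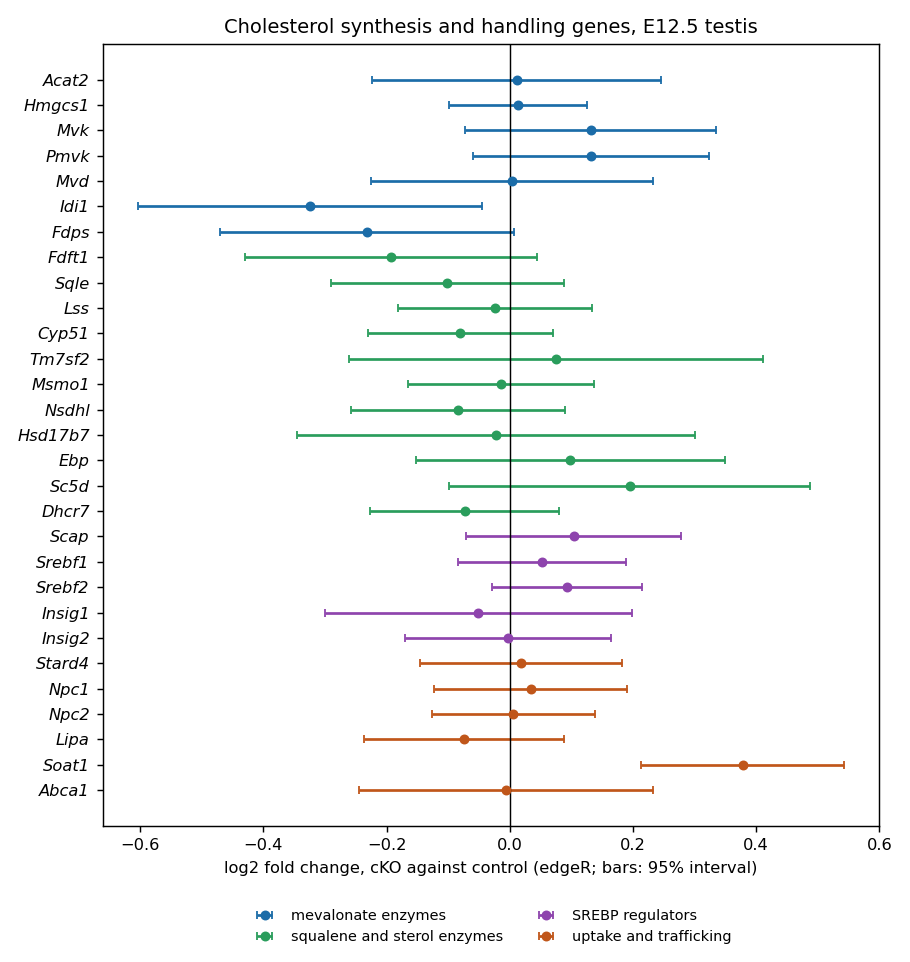
Log2 fold change of each member in cKO against control testes, fitted with edgeR on 3 and 3 samples, with bars for the 95% interval and colours for the role. Only the intervals of Soat1 (0.21 to 0.54) and Idi1 (-0.60 to -0.04) leave out 0, before any adjustment for the number of genes tested.

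Soat1 encodes the acyltransferase (ACAT1) of the endoplasmic reticulum that esterifies cholesterol for storage in lipid droplets, and lies at chr1:156428108-156474328 on the minus strand. It was at 129.0, 125.8 and 131.9 CPM in control replicates 1 to 3 and at 166.1, 151.1 and 185.4 CPM in cKO replicates 1 to 3. All cKO samples lay above all controls, and the controls differed little from each other. The mean was 29.9% higher in cKO, and the fitted log2 difference was 0.38 (SE 0.07, edgeR p 0.000532, FDR 0.377, DESeq2 FDR 0.00219). The exact two-sided permutation p was 0.1, the smallest that 3 samples against 3 allow.

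The highest Soat1 level was in cKO replicate 3, the library with high Xist. Without it the log2 fold change was 0.30 (edgeR p 0.00153), and over all 6 fits that left out a single library it lay between 0.30 and 0.45. The DESeq2 call was lost without control replicate 2 (FDR 0.0555) and without cKO replicate 3 (FDR 0.0682), and kept when any other library was left out (FDR 1.93e-05 to 0.0104). Per length, Soat1 was at 45.7 ± 1.93 TPM in control and 60.2 ± 5.32 TPM in cKO testes.

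Other genes of uptake and trafficking showed no such difference. Stard4, a soluble sterol carrier, was at 24.1, 27.0 and 25.1 CPM in controls and 26.7, 25.0 and 25.6 CPM in cKO samples. The lysosomal exporters Npc1 and Npc2 had log2 fold changes of 0.03 (95% interval -0.12 to 0.19) and 0.01 (-0.13 to 0.14). Lipa, the lysosomal acid lipase that frees cholesterol from its esters, was at -0.07 (-0.24 to 0.09). Abca1, the transporter that loads cholesterol onto apolipoprotein A-I, ranged from 119 to 155 CPM in controls and from 124 to 154 CPM in cKO samples. The average level of the 6 genes was 0.05 to 0.07 above the control mean (log2) in the cKO samples. Without Soat1, the only gene of the 6 whose groups did not overlap, the other 5 averaged 0.00, 0.01 and -0.02 in cKO replicates 1 to 3.

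**Figure D3:**
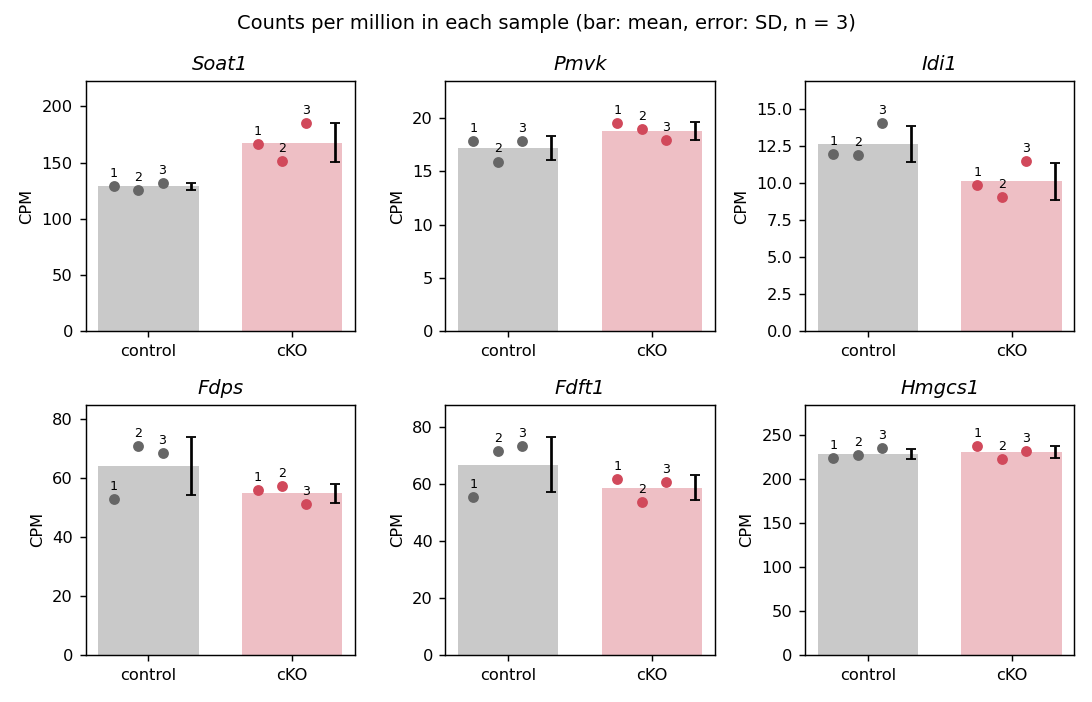
CPM in every sample for 6 members, with bars for the group mean, black error bars for the SD and points numbered by replicate (n = 3 a group, axes from 0). The groups do not overlap for Soat1, Pmvk and Idi1, while control replicate 1 of Fdps and Fdft1 lies among the cKO values and Hmgcs1 is level.

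Among the mevalonate enzymes, the isopentenyl diphosphate isomerase Idi1 (chr13:8885606-8892396, plus strand) had the lowest fold change. Its values were 12.0, 11.9 and 14.1 CPM in controls and 9.87, 9.07 and 11.5 CPM in cKO samples. Each cKO value lay below each control value, but the gap between cKO replicate 3 and control replicate 2 was small. The mean was 19.9% lower, and the fitted log2 difference was -0.32 (SE 0.12, edgeR p 0.0274, FDR 0.397, DESeq2 FDR 0.352). Without cKO replicate 3 it was -0.42 (edgeR p 0.0095), the largest in size of the 6 fits that left out a single library. Over those fits it lay between -0.42 and -0.24, with an edgeR p from 0.0095 to 0.0985.

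Fdps, the next enzyme, was at 52.8, 70.7 and 68.7 CPM in controls and 55.9, 57.4 and 51.1 CPM in cKO samples. Control replicates 2 and 3 lay above all cKO samples, and control replicate 1 lay between the cKO values. The log2 fold change was -0.23 (SE 0.11, edgeR p 0.0551, FDR 0.447). Fdft1, the squalene synthase that uses the product of Fdps, had a like arrangement, with 55.7, 71.8 and 73.3 CPM in controls and 61.8, 53.9 and 60.7 CPM in cKO samples (log2 fold change -0.19, SE 0.11, edgeR FDR 0.510). With control replicate 1 left out, DESeq2 called Fdps (-0.34, FDR 0.0123) and Fdft1 (-0.30, FDR 0.0373) lower. With any other library left out neither was called. Their DESeq2 FDR was then 0.451 to 0.99998, and missing without control replicate 3.

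Counts of these genes carry some uncertainty from near copies elsewhere in the genome. Of the 50-base windows of its transcripts, Idi1 shared 17.7% with Gm13502 and 5.09% with Gm35570, Fdps shared 23.4% with Gm43738, 12.1% with Gm3571 and 5.53% with Gm5873, and Fdft1 shared 9.38% with Gm6781. The largest share was that of Acat2, the cytosolic thiolase of the first step, which had 39.1% of its windows in common with Acat3. Acat2 was at 42.0, 46.9 and 55.6 CPM in controls and 45.5, 53.3 and 47.5 CPM in cKO samples. Acat3, named after its values were seen, had 14, 14 and 8 reads in controls and 45, 34 and 81 reads in cKO samples. That is 0.86, 0.32 and 0.20 CPM against 1.12, 0.95 and 2.45 CPM, a low level in every sample. The fitted log2 difference was 1.94 (SE 0.55, edgeR FDR 0.377), and 1.40 without cKO replicate 3 (edgeR p 0.0250). Tm7sf2 shared 9.87% with its neighbour Vps51. Fdft1, Lss, Srebf1 and Npc1 also overlap genes on the opposite strand, which strand-specific counting tells apart.

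The remaining mevalonate enzymes were close to level. Hmgcs1, whose promoter holds the SREBP core shown above, was at 224, 227 and 235 CPM in controls and 237, 223 and 232 CPM in cKO samples. Its log2 fold change of 0.01 had a 95% interval of -0.10 to 0.12, the narrowest of the members. Pmvk, the phosphomevalonate kinase, was the third member whose groups did not overlap, with 17.9, 15.9 and 17.9 CPM in controls and 19.6, 19.0 and 17.9 CPM in cKO samples. The lowest cKO value exceeded the highest control value by less than the rounding shown, and the log2 fold change was 0.13 (SE 0.09, edgeR p 0.155). The mevalonate kinase Mvk was also at 0.13 (SE 0.09), and the decarboxylase Mvd at 0.00 (SE 0.10).

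None of the 11 squalene and sterol enzymes had groups that did not overlap, and none had an unadjusted p under 0.05. Their log2 fold changes ran from -0.19 to 0.19, with 3 above and 8 below 0 and a median of -0.02. Sqle, the epoxidase that oxidises squalene, was at 77.6, 86.2 and 95.9 CPM in controls and 86.9, 77.9 and 77.9 CPM in cKO samples. The lanosterol synthase Lss and the lanosterol demethylase Cyp51 were at -0.02 (95% interval -0.18 to 0.13) and -0.08 (-0.23 to 0.07). In both genes control replicate 1 was the lowest control.

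Msmo1 and Nsdhl, which act in turn to remove the methyl groups at carbon 4 of the sterol ring, were at -0.01 and -0.08. Hsd17b7, which follows them, was at 11.1 CPM in control replicate 1 against 17.3 and 15.3 CPM in the other controls, and at 15.1, 14.0 and 14.3 CPM in cKO samples. Sc5d, the desaturase near the end of the pathway, was at 10.2, 14.2 and 13.4 CPM in controls and 14.2, 13.7 and 16.0 CPM in cKO samples (log2 fold change 0.19, SE 0.13). Dhcr7, which reduces 7-dehydrocholesterol in the last step of that branch, was at 45.68, 50.02 and 52.75 CPM in controls and 46.91, 47.44 and 47.13 CPM in cKO samples. The sterol isomerase Ebp and the sterol reductase Tm7sf2, at 0.10 (SE 0.11) and 0.07 (SE 0.15), likewise overlapped between groups.

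The SREBP regulators differed little. Scap, the escort protein of SREBP, was at 176, 148 and 156 CPM in controls and 162, 186 and 168 CPM in cKO samples. Srebf2, the main activator of the sterol enzyme genes, was at 164, 163 and 175 CPM in controls and 170, 183 and 182 CPM in cKO samples, a log2 fold change of 0.09 (95% interval -0.03 to 0.21). For Srebf1, better known for fatty acid genes, the log2 fold change was 0.05 (-0.08 to 0.19). Insig1, itself an SREBP target, was at 36.8, 47.1 and 47.7 CPM in controls and 44.4, 37.6 and 45.8 CPM in cKO samples, and Insig2 was at 0.00 (-0.17 to 0.16). Groups of Insig1 overlapped over most of their range.

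**Figure D4:**
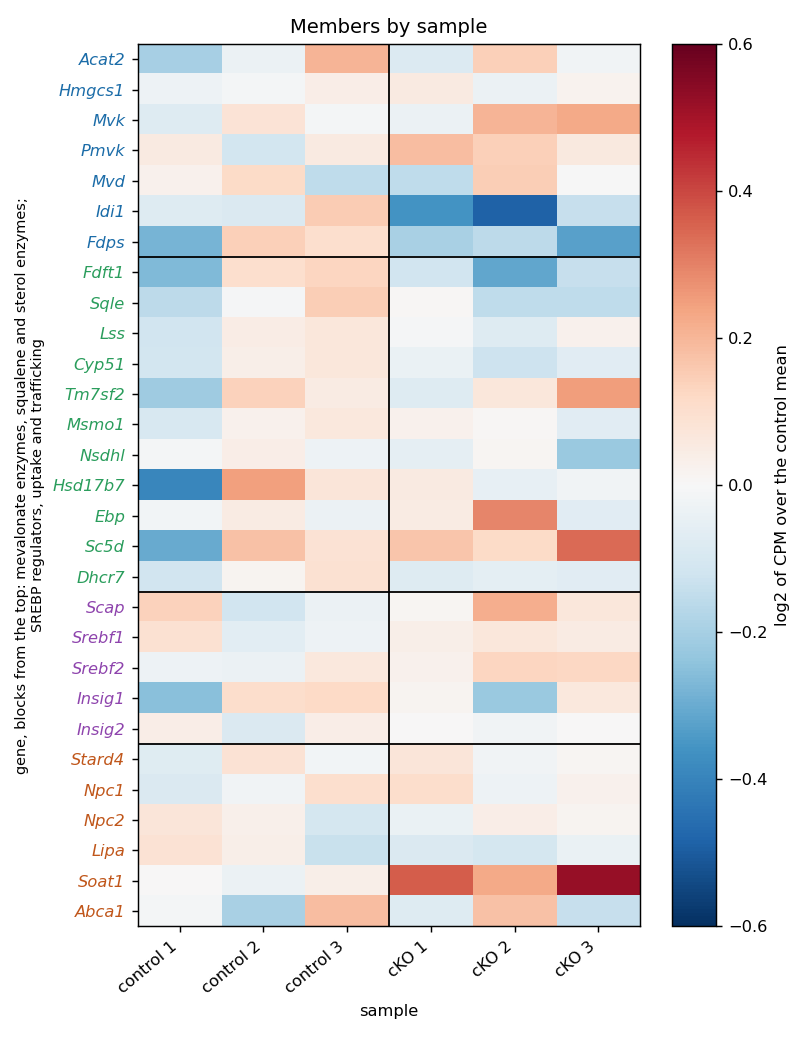
Log2 of the CPM of each member over its control mean (colour scale from -0.6 to 0.6), with samples in columns, genes in rows and black lines between roles and between groups. Soat1 is the row with the strongest red in the cKO columns (0.23 to 0.52), and the column of control replicate 1 is blue for most enzymes.

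The controls themselves differed in the enzymes. Control replicate 1 was the lowest control for 16 of 29 members, among them 13 of the 18 enzymes, where it was the lowest control for 36.7% of all tested genes. The average level of the 11 squalene and sterol enzymes, as log2 CPM minus the control mean, was -0.16, 0.08 and 0.07 in control replicates 1 to 3 and 0.00, -0.02 and -0.01 in cKO replicates 1 to 3. The cKO values thus lay inside the range of the controls. For the mevalonate enzymes the levels were -0.08, 0.02 and 0.06 in controls and -0.08, 0.00 and -0.02 in cKO samples.

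Without control replicate 1 the groups did not overlap for 12 of 29 members (41.4%, against 33.0% of all genes in the same comparison of 2 controls with 3 cKO samples). Idi1, Fdps, Fdft1, Lss, Cyp51, Hsd17b7, Dhcr7 and Insig1 were lower in cKO, and Pmvk, Scap, Srebf1 and Soat1 were higher. An unadjusted p under 0.05 was then reached by 5 members (17.2%, against 13.2% of all genes), namely Idi1, Fdps and Fdft1 lower and Scap and Soat1 higher. Without cKO replicate 3 the groups did not overlap for 4 members (13.8%, against 22.8% of all genes), Pmvk, Ebp and Soat1 higher and Idi1 lower.

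Germ cell markers also differed between the samples. The average level of the 14 tested germ cell markers, of 15 listed, was -0.44, 0.22 and 0.22 in control replicates 1 to 3 and -0.36, -1.31 and -0.71 in cKO replicates 1 to 3 (log2 CPM minus the control mean). All of them had a fold change below 0, with a median of -0.82, 12 were lower at an unadjusted p under 0.05, and DESeq2 called 2 lower. Their summed level was 546 to 888 CPM in controls and 281 to 577 CPM in cKO samples, and control replicate 1 was the lowest control here as well. The cKO samples did not share this likeness. There the squalene and sterol enzymes were at 0.00, -0.02 and -0.01 and the mevalonate enzymes at -0.08, 0.00 and -0.02 in replicates 1 to 3. The part of germ cell content or of library depth in the levels of Idi1, Fdps and Fdft1 was not tested. Fetal Leydig cell markers were at -0.25, 0.00 and 0.25 in controls and -0.21, 0.15 and -0.73 in cKO samples. Sertoli cell markers were at 0.13, -0.07 and -0.06 in controls and 0.02, 0.16 and -0.17 in cKO samples. Of these 12 markers 6 had a fold change above 0 and 6 below. At an unadjusted p under 0.05, 2 were higher and 0 lower (16.7%, against 11.4% of all tested genes). They were Sox9 (0.28, edgeR p 0.0125) and Inhbb (0.25, edgeR p 0.0139), both with overlapping groups. The part of the content of any cell type, germ cells included, in the Soat1 level was not tested either.

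**Figure D5:**
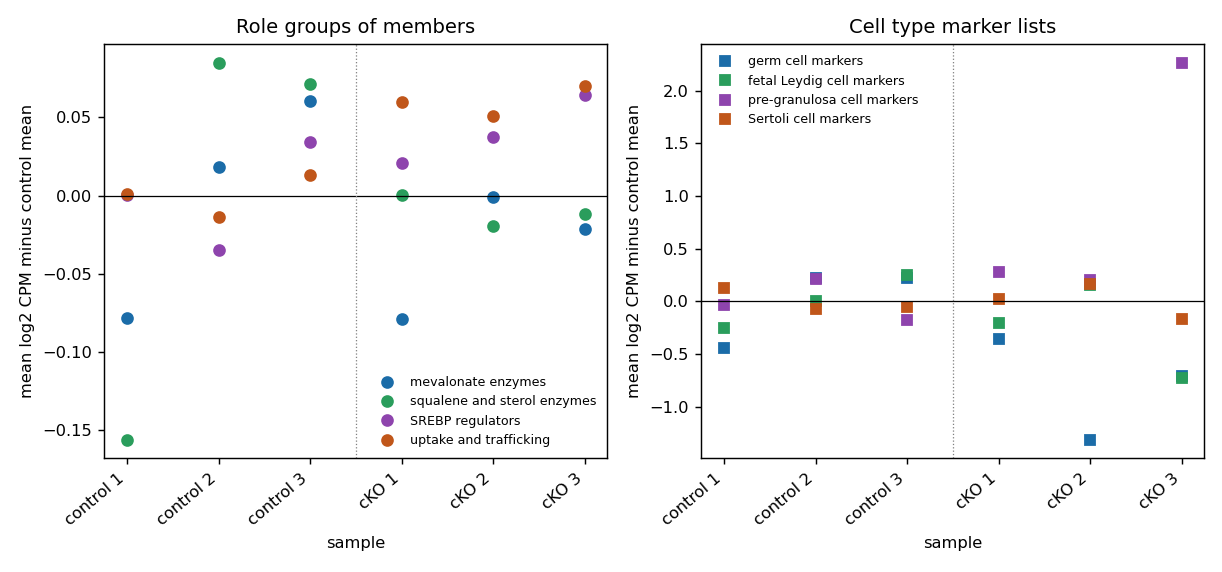
Mean log2 CPM minus the control mean in each sample for the 4 role groups (left) and for 4 lists of cell type markers (right), with a dotted line between control and cKO and different vertical scales in the panels. On the left, the squalene and sterol enzymes of control replicate 1 are lowest at -0.16. On the right, germ cell markers reach -1.31 in cKO replicate 2 and pre-granulosa markers 2.27 in cKO replicate 3.

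Genes around the pathway were read from 6 further lists, of which no gene was called by edgeR or DESeq2. Among 18 tested genes of isoprenoid branches and enzyme partners, 4 were higher and 0 lower at an unadjusted p under 0.05 (22.2%, against 11.4% of all tested genes). Those reported here are Acat3, given above, and the partners of sterol enzymes Cyb5b and Pgrmc1. Cyb5b, a cytochrome b5 that passes electrons to oxidising enzymes, was at 135, 126 and 139 CPM in controls and 157, 138 and 158 CPM in cKO samples, with overlapping groups. Pgrmc1, a heme protein that binds cytochrome P450 enzymes, was at 181, 176 and 179 CPM in controls and 191, 199 and 191 CPM in cKO samples, and its groups did not overlap (0.12 on the log2 scale, SE 0.05, edgeR p 0.0349, FDR 0.410). Without cKO replicate 3 the log2 fold change of Pgrmc1 was 0.13 (edgeR p 0.0687). In these lists some lowest-p genes were named by rule, and any others after their values were seen.

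Cholesterol export under the LXR receptors had 0 higher and 1 lower of 14 tested genes at that p (7.14%, below the share of all genes). The gene was Abcg1, which passes cholesterol to high-density lipoprotein, with 33.6, 33.8 and 41.7 CPM in controls and 31.7, 27.0 and 25.7 CPM in cKO samples (log2 fold change -0.37, SE 0.11, edgeR p 0.00690, FDR 0.377). All cKO samples lay below all controls, in contrast to the overlapping values of Abca1. The lowest Abcg1 value was in cKO replicate 3, and without that library the log2 fold change was -0.31 (edgeR p 0.0275). Of 22 lipoprotein receptors and sterol carriers, 0 were higher and 2 lower (9.09%, also below it), the sterol carrier protein Scp2 (-0.17, SE 0.07, edgeR p 0.0378) and Stard3nl (-0.14, SE 0.06, edgeR p 0.0461). Without cKO replicate 3 Scp2 was at -0.20 (edgeR p 0.0307) and Stard3nl at -0.14 (edgeR p 0.120).

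Of 14 tested genes of fatty acid synthesis under SREBP-1, 2 were higher and 0 lower at the unadjusted p (14.3%, against 11.4% of all tested genes), the desaturases Fads1 (0.14, SE 0.05, edgeR p 0.0219) and Scd1. The Scd1 difference rested on cKO replicate 1, at 13.6 CPM against 3.20 to 6.32 CPM in the other samples. Of 14 genes of SREBP cleavage and sterol-regulated degradation, 0 reached that p, and the lowest was that of Erlin1 (-0.13, SE 0.06, edgeR p 0.0656). Steroid hormone synthesis, which uses cholesterol in Leydig cells, had 0 of 12 genes at that p, with a median log2 fold change of -0.14 that was -0.03 without cKO replicate 3. Its gene of lowest p, Fdx1, the ferredoxin that passes electrons to mitochondrial steroid hydroxylases, was at 22.5, 31.6 and 37.2 CPM in controls and 27.1, 27.5 and 21.6 CPM in cKO samples (-0.27, SE 0.16, edgeR p 0.126). The groups overlapped, and cKO replicate 3 was the lowest of all.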

How the data were processed

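The authors prepared stranded mRNA libraries, aligned paired reads to mm10 with STAR (version 2.5 in the submitters' notes) and counted reads per RefSeq gene with strand-specific featureCounts (Subread 1.5.0-p1). The deposited values are raw counts per gene. Groups and replicate numbers came from the sample titles, and p-values measure the spread between pooled samples. In R 4.3.3, edgeR 4.0.16 (filterByExpr with a minimum count of 10, TMM, quasi-likelihood F-test, no covariate) gave the main test of cKO against control, with Benjamini-Hochberg adjustment over 15577 genes and a threshold of 0.05. The SE came from the F statistic. Log2 CPM used a prior count of 2. Alternatives were DESeq2 1.42.0, limma-voom (limma 3.58.1), the newer quasi-likelihood method, RLE size factors, 2 other filters, a replicate block, thinned libraries and each library left out. DESeq2 with each library left out was chosen after seeing the data. The tests were tested on simulated data. TPM and shared 50-base windows used GENCODE M21 (GRCm38), and windows shared at 5% or more are given. Promoters came from RefSeq (GRCm38.p6), which held 24 of the 29 members.

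The members and lists were chosen with earlier results of these data known. Named are the 29 members, Ppp1r3c, Xist, the lowest-p gene of each pathway list (1 of them is not reported here) and, after their values were seen, any others. The lists of Sertoli, germ, fetal Leydig, pre-granulosa and Y-linked genes served beside the results.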

Additional observations from a re-analysis of the deposited data

How the results depend on the processing

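The log2 fold change kept its sign in 14 of 29 members under all 14 alternatives and turned in 15, whose values on all 6 samples were at most 0.098 in size. With 3 pooled samples a group and a control replicate 1 of 16139487 counts, the 95% intervals of single members reached 0.11 to 0.34 (log2) to either side. The cause of the changes below was not tested.

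edgeR called 5 genes higher and 1 lower, of which no member. DESeq2 called 57 higher and 54 lower, and 1 member higher. limma-voom, the newer quasi-likelihood method, no filter and thinned libraries each called 2 lower, and the stricter filter called 3 higher. Thinning left 1 member at an unadjusted p under 0.05, and the share of all genes in that fit is not given. Leaving out single libraries gave 1 to 5 genes higher and 1 to 3 lower, and 2 to 5 members at an unadjusted p under 0.05. The 5 were without control replicate 1 (17.2%, against 13.2% of all genes). Groups did not overlap for 4 to 12 members. The 12 were without control replicate 1 (41.4%, against 33.0% of all genes), while without cKO replicate 3 there were 4 (13.8%, against 22.8%). On all 6 samples the share of all genes was 15.6%, so it rose with a library left out in both of these cases. In DESeq2, leaving out single libraries gave 0 to 1 members higher and 0 to 2 lower.

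The replicate numbers did not pair the samples, with correlations of deviations of -0.203, -0.266 and -0.13 for numbers 1 to 3. The fit with the replicate block called 2 genes higher and 1 lower, and turned Hsd17b7 to 0.00591.

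Insig2 turned to 0.0014 in DESeq2, 0.0062 in limma-voom, 0.0010 with the newer quasi-likelihood method, 5.563e-05 with no filter and 0.037 in thinned libraries. Acat2 turned to -0.00449 in limma-voom. Thinning also turned Msmo1 to 0.042, Nsdhl to 0.012 and Npc2 to -0.0017. The ranges that follow, for genes that turned with single libraries left out, take edgeR and the added DESeq2 fits together. They were -0.072 to 0.132 for Acat2, -0.0070 to 0.038 for Hmgcs1, -0.076 to 0.082 for Mvd and -0.074 to 0.012 for Lss. Tm7sf2 ran from -0.015 to 0.152, Msmo1 from -0.056 to 0.021, Hsd17b7 from -0.167 to 0.119 and Ebp from -0.0082 to 0.177. Insig1 ran from -0.154 to 0.034, Insig2 from -0.056 to 0.027 and Stard4 from -0.013 to 0.065. Npc1 ran from -0.0043 to 0.090, Npc2 from -0.050 to 0.045 and Abca1 from -0.106 to 0.102.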
